A study of Mus musculus with 18 samples.

Results

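The 7 NADPH oxidase subunit genes Cybb, Cyba, Nox4, Ncf1, Ncf4, Rac1 and Rac2 were examined in mouse left ventricle, as the listed genes of a count table of 55450 gene IDs. All 7 passed the filter on low counts that left 16270 genes for testing. The study compared wild-type (WT) FVB/N mice with littermates in which Gαq, a heterotrimeric G protein subunit encoded by Gnaq, is overexpressed specifically in the heart, a model of dilated cardiomyopathy. Male mice of both genotypes were fed control diet (CD) or chow holding 0.5 mg/g of ertugliflozin (ERTU), which blocks SGLT2, the sodium-glucose cotransporter of the kidney. Treatment began at 4 weeks of age and lasted 16 weeks, so that hearts were taken at 20 weeks. There were 4 WT and 5 Gαq hearts on CD and 5 WT and 4 Gαq hearts on ERTU, and each library came from the frozen, powdered left ventricle of a heart. The promoter that drives the transgene is not given in the sources used here. Libraries are named by their group and by the number in the count table, which was not tied to the replicate numbers of the labels.

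NADPH oxidases are membrane enzymes that pass electrons from NADPH to oxygen and so make superoxide or hydrogen peroxide. The phagocyte enzyme consists of the catalytic subunit NOX2 (gp91phox, encoded by Cybb) and its membrane partner p22phox (Cyba), and becomes active when cytosolic subunits, among them p47phox (Ncf1) and p40phox (Ncf4), and the GTPase Rac1 or Rac2 move to the membrane. NOX4 (Nox4) also pairs with p22phox but is active without the cytosolic subunits, so that its output follows its amount. In the heart NOX2 and NOX4 are known from cardiomyocytes, endothelial cells and fibroblasts, while Ncf4 and Rac2 are mainly genes of blood-derived cells.

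Positions are those of GRCm38. Of the catalytic subunits, Cybb (ENSMUSG00000015340) spans chrX:9435252-9487771 on the minus strand and Nox4 (ENSMUSG00000030562) chr7:87246096-87398710 on the plus strand. Their partner Cyba (ENSMUSG00000006519) spans chr8:122424776-122432930 on the minus strand. Of the organizers, Ncf1 (ENSMUSG00000015950) lies at chr5:134220053-134229625 on the minus strand, and its exons overlap those of Gtf2ird2 on the opposite strand. Ncf4 (ENSMUSG00000071715) lies at chr15:78244801-78262580 on the plus strand and the GTPase gene Rac2 (ENSMUSG00000033220) on the same chromosome at chr15:78559167-78572783 on the minus strand. Rac1 (ENSMUSG00000001847) spans chr5:143503634-143528036 on the minus strand and overlaps exons of Daglb on the opposite strand. Counting was stated to be by strand.

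Promoter windows from RefSeq (GRCm38.p6) matched 4 of the 7 genes, Cybb, Cyba, Nox4 and Ncf1. The windows of Nox4 and Ncf1 are shown because these genes varied together among libraries, and the start of Cybb because it is the only matched gene whose window of 300 bases held the core GAGGAA of the myeloid factor PU.1. Capitals mark that core, which was read on the opposite strand as TTCCTC, 10 bases after the start site. The Cybb stretch is chrX:9469298-9469327 (minus strand). The windows of Nox4 and Ncf1 are the 250 bases before the RefSeq start site, chr7:87246399-87246648 (plus strand) and chr5:134229626-134229875 (minus strand). For Cybb and Nox4 the RefSeq start site lies inside the gene span given above. Their stretches are therefore not upstream of those spans.
Cybb start: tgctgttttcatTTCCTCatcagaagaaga
Nox4 upstream: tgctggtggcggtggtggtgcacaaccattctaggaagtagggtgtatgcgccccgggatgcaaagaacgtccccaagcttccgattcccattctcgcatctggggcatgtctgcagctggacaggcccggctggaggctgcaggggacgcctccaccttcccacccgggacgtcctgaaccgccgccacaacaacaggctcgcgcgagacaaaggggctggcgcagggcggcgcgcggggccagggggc
Ncf1 upstream: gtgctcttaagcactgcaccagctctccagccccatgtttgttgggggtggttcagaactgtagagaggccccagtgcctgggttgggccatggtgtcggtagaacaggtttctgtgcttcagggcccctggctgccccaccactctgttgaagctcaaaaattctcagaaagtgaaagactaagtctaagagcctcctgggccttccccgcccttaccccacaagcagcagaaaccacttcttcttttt
Searched on both strands, GAGGAA occurred in 28.3% of 32851 such windows, so that its presence in the Cybb window is common among genes. The upstream bases differed in composition. G and C made up 67.2% of them for Nox4, 60% for Cyba, 54.4% for Ncf1 and 34% for Cybb, against a median of 52.4% over all windows, and only 3.87% of windows were poorer in G and C than that of Cybb.

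Library totals ran from 15383566 to 20908363 read pairs. Gnaq, the check of the transgene, did not overlap between genotypes (log2 fold change 5.42 ± 0.45, SE, edgeR adjusted p = 4.74e-08). Within Gαq its estimate was lower on ERTU (-1.22 ± 0.52, edgeR unadjusted p = 0.0294, adjusted p = 0.653). It ran from 1639 to 11662 CPM (the count scaled to library size) in Gαq CD and from 2234 to 5202 CPM in Gαq ERTU. The part of transgene level in the ERTU values of Gαq hearts was not tested. The defining markers of macrophages were present in every library (Csf1r from 57.9 to 112 CPM). In contrast, 10 neutrophil markers together summed to at most 6.64 CPM and 3 of them passed the filter. Among these 10, Ly6g (at most 0.0564 CPM) and Mpo (at most 0.113 CPM) were at or near 0, S100a8 and S100a9 reached 1.26 and 1.70 CPM, and Csf3r ran from 1.11 to 3.47 CPM. The 10 cardiomyocyte markers summed to at least 74457 CPM in every library. The 6 atrial markers, which should be low in ventricle, summed to 362.7 CPM in WT CD library 5, 385.4 CPM in WT ERTU library 14, 968 CPM in Gαq CD library 8 and 631 CPM in Gαq ERTU library 20, and to between 30.1 and 278 CPM in the other 14 libraries. Main values of the 7 genes are also given without these 4 libraries. By genotype none of 5 tested atrial markers was called, but all 5 estimates were positive, with a median log2 fold change of 1.16 (edgeR). Without the 4 libraries the sums ran from 124 to 278 CPM in Gαq ERTU and from 40.6 to 145 CPM in WT ERTU. On CD they ran from 41 to 221 CPM in Gαq and from 30.1 to 119 CPM in WT. The part of atrial tissue in the values of the 7 genes was not tested.

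The genes stood far apart in level. Scaled by merged exon length, the mean level over all 18 libraries was 43.2 CPM per kb for Rac1, the widely expressed Rac GTPase, and 24.3 CPM per kb for Cyba. The 5 others were much lower. Cybb stood at 3.09 CPM per kb, Ncf1 at 2.27, Rac2 at 1.48, Ncf4 at 1.28 and Nox4 at 0.614. Rac1 exceeded Cyba, Cyba exceeded Cybb and Ncf4 exceeded Nox4 in 18 of 18 libraries. The remaining neighbours overlapped, since Cybb exceeded Ncf1 in 16 libraries, Ncf1 exceeded Rac2 in 17 and Rac2 exceeded Ncf4 in 14 of 18. Cyba, whose product both catalytic subunits need, was 7.86-fold above Cybb per length, with a range over libraries from 6-fold to 11.9-fold.

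The genes also differed in how much they varied among hearts. Rac1 CPM spanned 1.27-fold over all 18 libraries, from 166.9 to 212 CPM, and its biological coefficient of variation within groups in the edgeR fit was 9.97%. Nox4 spanned 11.4-fold, from 0.932 to 10.6 CPM, with a coefficient of 53.9%, above that of 99% of 1587 genes of similar abundance, whose median was 17.8%. The coefficients of the other 5 genes lay between 13.2% and 17.96%.

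**Figure D1:**
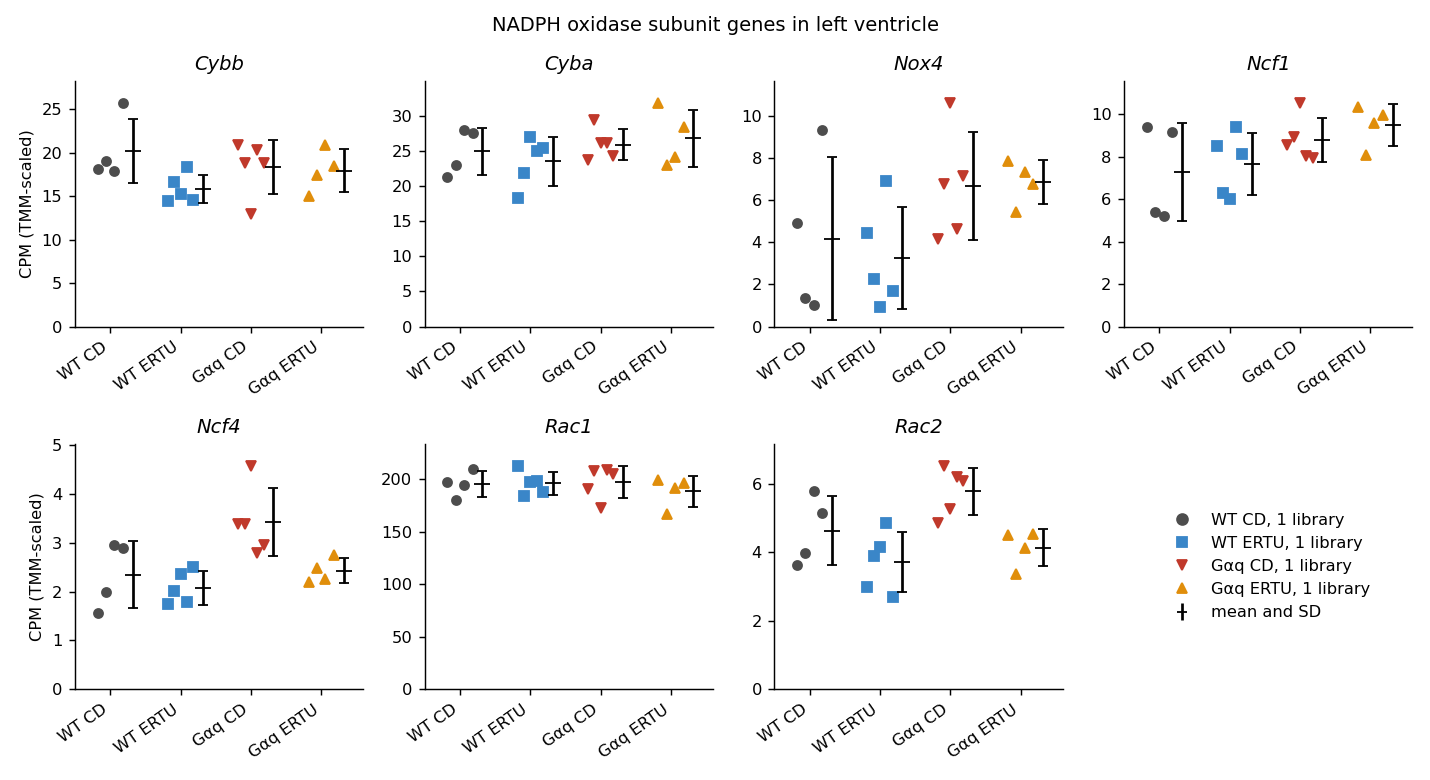
Level of each gene in CPM (vertical axes, from 0) in every library of the 4 groups, with the mean and SD beside the points. Nox4 runs from 0.932 to 10.6 CPM with its lowest libraries all in WT, Rac1 stays between 166.9 and 212 CPM, and the Gαq ERTU points of Ncf4 and Rac2 lie below the Gαq CD points.

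The comparison of genotypes asked which subunits differ with Gαq overexpression. None of the 7 genes passed the threshold of an adjusted p of 0.05 in the model with genotype and diet (edgeR quasi-likelihood test), where 19.6% of all genes tested did. Nox4, Ncf1 and Ncf4 had an unadjusted p under 0.05, as did 31.9% of all genes. DESeq2 called none of the 7, and limma voom with sample quality weights called Nox4, Ncf1 and Ncf4. The estimates were positive for 6 of 7 genes and for 50.6% of all genes, with a median log2 fold change of 0.24 against 0.00377 over all genes.

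Nox4 had the largest estimate of the 7. In WT CD it stood at 9.35, 4.90, 1.37 and 1.04 CPM, and in WT ERTU at 6.92, 4.43, 2.28, 1.67 and 0.932 CPM. In Gαq CD the values were 10.6, 7.16, 6.77, 4.64 and 4.18 CPM, and in Gαq ERTU 7.85, 7.34, 6.80 and 5.43 CPM. All 9 Gαq hearts were thus at or above 4.18 CPM, while 5 of 9 WT hearts were at or below 2.28 CPM and the other 4, WT CD libraries 1 and 5 and WT ERTU libraries 11 and 14, overlapped the Gαq range. The log2 fold change was 0.88 ± 0.36 (SE), or 1.84-fold, with an edgeR adjusted p of 0.0941. It was 0.70 ± 0.52 on CD (adjusted p = 0.500) and 1.07 ± 0.52 on ERTU (adjusted p = 0.241). The CD estimate moved to 1.46 without WT CD library 5, and to 0.40, 0.37 and 0.47 without WT CD library 2, WT CD library 4 and Gαq CD library 8.

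Whether Nox4 passed the threshold by genotype turned on single WT libraries. With each of the 18 libraries left out in turn, the estimate ran from 0.74 to 1.24 and the adjusted p from 0.0137 to 0.165. Of these 18 fits, 2 passed the threshold, without WT CD library 5 (log2 fold change 1.24, edgeR adjusted p = 0.0137) and without WT ERTU library 14 (1.09, adjusted p = 0.0369). The 4 libraries highest in atrial markers, 1 from each group, include these 2 WT libraries, so that leaving them out is not a separate check. Without the 4 libraries the log2 fold change was 1.40 ± 0.33 (adjusted p = 0.00650), with 1.226 ± 0.49 on CD (0.169) and 1.56 ± 0.47 on ERTU (0.0507). Under voom, whose quality weights are lower for libraries that depart more from the fitted values of these data, it was 1.501 (adjusted p = 0.00166).

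Fibroblast markers moved with Nox4. The sum of 10 fibroblast markers, which include Pdgfra, Dcn and Col1a2, ran from 1610 to 3123 CPM in WT and from 2937 to 4457 CPM in Gαq. By genotype 7 of the 10 were called higher, against 9.72% of all genes. Within WT the sum was 3123 CPM in library 5 and 2985 CPM in library 14, the libraries highest in Nox4. It was 2365 CPM in library 1, and between 1610 and 2020 CPM in the other 6. Library 11 had the lowest sum although its Nox4 was 4.43 CPM. The part of fibroblast content in the Nox4 values was not tested. In bulk tissue, fewer or more cells of a type and less or more RNA per cell cannot be told apart.

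Ncf1, the organizer of the NOX2 enzyme, followed the same hearts. In WT CD it stood at 9.39, 9.16, 5.41 and 5.21 CPM, with the high values in libraries 1 and 5. In WT ERTU it stood at 9.38, 8.51, 8.11, 6.29 and 6.03 CPM, with libraries 14 and 11 on top. The Gαq libraries lay between 7.96 and 10.5 CPM on either diet, so that the genotypes overlapped. The log2 fold change was 0.29 ± 0.12 (1.22-fold, edgeR adjusted p = 0.108), and no single library left out brought it past the threshold (adjusted p from 0.0534 to 0.210). It was 0.35 ± 0.14 without the 4 libraries highest in atrial markers (adjusted p = 0.0938).

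Ncf4, which stabilizes the assembled enzyme on phosphoinositide membranes, was estimated higher in Gαq on CD. Its values were 2.95, 2.89, 1.99 and 1.56 CPM in WT CD and 4.57, 3.38, 3.38, 2.95 and 2.80 CPM in Gαq CD. The groups overlapped only between 2.80 and 2.95 CPM. The log2 fold change was 0.55 ± 0.21 on CD (edgeR adjusted p = 0.122), 0.23 ± 0.21 on ERTU (adjusted p = 0.588) and 0.39 ± 0.15 in the model with both diets (1.31-fold, adjusted p = 0.0714). These values were 0.53 ± 0.23 (edgeR adjusted p = 0.217), 0.10 ± 0.23 (0.843) and 0.32 ± 0.17 (0.213) without the 4 libraries highest in atrial markers.

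The other 4 genes had smaller estimates by genotype, though that of Rac2 was close to that of Ncf1 (0.29 ± 0.12). Rac2 had a log2 fold change of 0.24 ± 0.13 (edgeR adjusted p = 0.216) and Cyba of 0.12 ± 0.09 (adjusted p = 0.358). Cybb differed by 0.02 ± 0.10 (adjusted p = 0.924), and an interval of 2 SE ran from -0.19 to 0.23. Rac1 differed by -0.02 ± 0.06 (adjusted p = 0.843), with an interval from -0.14 to 0.09. Without the 4 libraries highest in atrial markers the estimates were 0.31 ± 0.14 for Rac2 (edgeR adjusted p = 0.162), 0.14 ± 0.10 for Cyba (0.416), 0.16 ± 0.08 for Cybb (0.184) and 0.00740 ± 0.07 for Rac1 (0.959). None of the 7 genes was called on CD, where 8.1% of all genes were, or on ERTU, where 8.17% were. At an unadjusted p under 0.05 there was 1 of 7 on CD (Ncf4, background 21%) and 0 of 7 on ERTU (background 21.7%), DESeq2 called none in either, and voom called Ncf4 on CD (0.66, adjusted p = 0.0446) and Nox4 on ERTU (1.66, adjusted p = 0.0120).

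**Figure D2:**
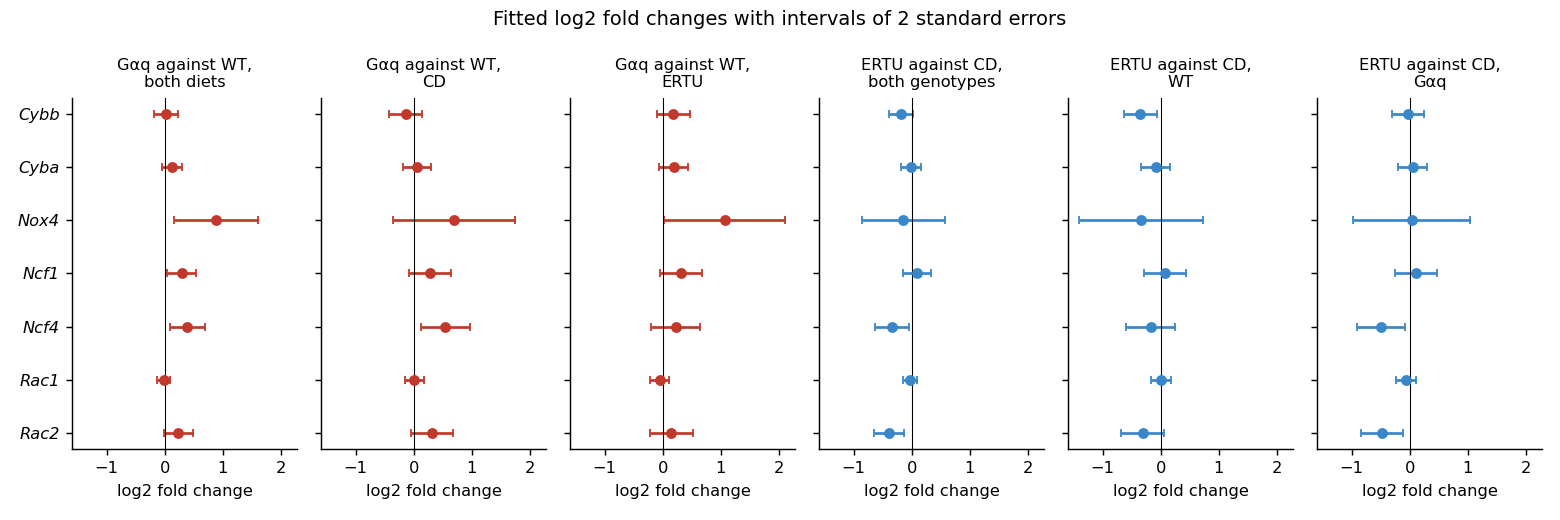
Fitted log2 fold change of each gene (horizontal axes) with an interval of 2 SE, for Gαq against WT (first 3 panels) and ERTU against CD (last 3). The interval of Nox4 is the widest in every panel, those of Rac1 and Cybb by genotype span 0, and Ncf4 and Rac2 lie below 0 for ERTU in Gαq.

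The comparison of diets asked whether ertugliflozin is accompanied by other subunit levels. No member passed the threshold by diet, in WT or in Gαq, nor in the interaction, which compares the ERTU effect of Gαq with that of WT hearts, and the background was as low, with 0% of all genes called by diet, 0% in WT, 0.00615% in Gαq and 0% in the interaction (edgeR). At an unadjusted p under 0.05 there were 2 of 7 by diet (7.7% of all genes), 1 in WT (2.24%), 2 in Gαq (7.62%) and 0 for the interaction (1.92%). Neither DESeq2 nor voom called any of the 7 in these 4 comparisons.

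Rac2, the Rac of blood cells, had the lowest unadjusted p by diet. In Gαq CD it stood at 6.53, 6.19, 6.09, 5.26 and 4.85 CPM, and in Gαq ERTU at 4.55, 4.50, 4.12 and 3.38 CPM. The groups did not overlap. The log2 fold change in Gαq was -0.48 ± 0.18 (1.40-fold lower, unadjusted p = 0.0155, edgeR adjusted p = 0.653). In WT, where it was 5.78, 5.14, 3.98 and 3.63 CPM on CD and 4.87, 4.17, 3.90, 3.00 and 2.70 CPM on ERTU, the groups overlapped and the log2 fold change was -0.31 ± 0.18 (adjusted p = 0.999957). Over both genotypes it was -0.40 ± 0.13 (unadjusted p = 0.00540, adjusted p = 0.639), and -0.47 ± 0.15 without the 4 libraries highest in atrial markers (adjusted p = 0.913).

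Ncf4 behaved alike in Gαq hearts. Its 4 Gαq ERTU values, 2.75, 2.49, 2.26 and 2.19 CPM, lay below all 5 Gαq CD values, of which the lowest was 2.80 CPM. The log2 fold change was -0.49 ± 0.21 (1.41-fold lower, unadjusted p = 0.0268, edgeR adjusted p = 0.653). Of all genes tested, 1.6% did not overlap between these groups and 0.854% were lower on ERTU without overlap, so that 2 of 7 members lower without overlap stands against a small background but no adjusted call.

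In WT hearts the values of Ncf4 ran from 1.56 to 2.95 CPM on CD and from 1.74 to 2.51 CPM on ERTU, with a log2 fold change of -0.17 ± 0.21 (adjusted p = 0.999957). The difference between genotypes in the effect of ERTU was -0.32 ± 0.30 for Ncf4 and -0.17 ± 0.26 for Rac2 (edgeR adjusted p = 0.999631 for both). With the 4 libraries highest in atrial markers left out, the log2 fold change of ERTU in Gαq was -0.43 ± 0.23 for Ncf4 and -0.56 ± 0.21 for Rac2 (adjusted p = 0.862 for both), that in WT was -0.00671 ± 0.23 and -0.37 ± 0.21 (0.999558 for both), and the difference between genotypes was -0.42 ± 0.32 and -0.19 ± 0.30 (0.999795 for both).

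Leukocyte markers moved in part with these genes. The sum of 14 macrophage markers ran from 509 to 817 CPM in Gαq CD and from 448 to 684 CPM in Gαq ERTU. The sum of 10 lymphocyte markers ran from 7.25 to 11.4 CPM in Gαq CD and from 4.71 to 8.54 CPM in Gαq ERTU. Both sums overlapped between diets, as did the sum of 10 neutrophil markers, from 2.44 to 6.22 CPM in Gαq CD and from 2.55 to 6.64 CPM in Gαq ERTU. A few single markers were lower on ERTU without overlap, 2 of 14 for macrophages and 1 of 6 tested for lymphocytes, against 0.854% of all genes. None of the markers was higher without overlap. These 3 are named after their values were seen. Cx3cr1, the fractalkine receptor, ran from 9.74 to 25.1 CPM in Gαq CD and from 3.95 to 8.25 CPM in Gαq ERTU (log2 fold change -1.63 ± 0.33, edgeR adjusted p = 0.371). Fcgr1, a receptor for antibodies, ran from 2.64 to 4.21 CPM and from 1.47 to 2.31 CPM. Cd4, the coreceptor of helper T cells, ran from 2.22 to 2.98 CPM and from 1.44 to 1.83 CPM. Per 100 CPM of macrophage markers, Ncf4 ran from 0.516 to 0.570 CPM in Gαq CD and from 0.366 to 0.556 CPM in Gαq ERTU, and Rac2 from 0.643 to 1.22 CPM and from 0.664 to 0.811 CPM, so that these ratios overlapped as well. The part of leukocyte content in the values was not tested.

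Cybb had the largest estimate of ERTU in WT. It stood at 25.7, 19.0, 18.2 and 17.9 CPM in WT CD and at 18.3, 16.6, 15.2, 14.5 and 14.4 CPM in WT ERTU, where only library 14 reached the lowest WT CD values. The log2 fold change was -0.35 ± 0.14 (1.28-fold lower, unadjusted p = 0.0226, edgeR adjusted p = 0.999957). In Gαq it was -0.03 ± 0.14 (adjusted p = 0.959), from 20.9, 20.2, 18.8, 18.8 and 12.9 CPM on CD and 20.9, 18.4, 17.4 and 14.97 CPM on ERTU. The difference between genotypes in this effect was 0.32 ± 0.20 (adjusted p = 0.999631). Without the 4 libraries highest in atrial markers the effect was -0.27 ± 0.11 in WT (adjusted p = 0.999558) and -0.14 ± 0.11 in Gαq (0.868), and the difference was 0.13 ± 0.16 (0.999795).

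For the remaining genes the estimates of ERTU were small or imprecise. Cyba differed by -0.08 ± 0.12 in WT and 0.05 ± 0.12 in Gαq, and Rac1 by 0.00454 ± 0.08 and -0.06 ± 0.08. Ncf1 differed by 0.07 ± 0.18 and 0.11 ± 0.18. Nox4 differed by -0.34 ± 0.54 in WT and 0.03 ± 0.50 in Gαq, with an interval of 2 SE in Gαq from -0.98 to 1.04, so that a change of up to about that size in either direction was not detectable in these hearts. Without the 4 libraries highest in atrial markers the estimates in WT and Gαq were -0.05 and 0.03 for Cyba, 0.04 and -0.12 for Rac1, 0.12 and 0.16 for Ncf1, and -0.07 and 0.27 for Nox4.

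Within groups, the 7 genes did not vary as a unit. Correlations were computed on log2 CPM after subtracting each group's mean, over 18 libraries, and are given as a description, since points share library, depth and tissue make-up. Nox4 and Ncf1 had a Pearson r of 0.87 (Spearman rho 0.84), with 0.90 among WT and 0.73 among Gαq libraries. The r was 0.81 over the 14 libraries left when the 4 highest in atrial markers were excluded. The next pairs were Cyba with Rac2 at 0.64 (0.60 in WT, 0.74 in Gαq and 0.63 without the 4 libraries) and Cyba with Ncf4 at 0.53, which was 0.80 in WT but 0.03 in Gαq (0.59 without the 4). Cybb, whose product needs p22phox and p47phox, had an r near 0 with Cyba and with Ncf1 (-0.02 and 0.03), in which opposite signs were pooled. With Cyba the values were 0.35 in WT and -0.39 in Gαq, and with Ncf1 0.40 and -0.64. They were -0.39 with Cyba and -0.26 with Ncf1 without the 4 libraries. Cybb with Nox4 had an r of 0.19, with 0.65 in WT and -0.74 in Gαq (-0.18 without the 4). Nox4 with Ncf4 had -0.18, with -0.35 in WT and 0.52 in Gαq (-0.79 without the 4). Rac1 with Rac2 had 0.41, with 0.14 in WT and 0.86 in Gαq (0.35 without the 4).

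Nox4 was most like Ltbp2 (r = 0.92, rho = 0.87), a matrix protein that binds elastic microfibrils, Ptprj (0.92, 0.87), a receptor tyrosine phosphatase, and Prg4 (0.89, 0.88), the lubricating proteoglycan known from joints, among 13093 genes with a mean log2 CPM of at least 1. With Ltbp2 the r of Nox4 was 0.97 in WT and 0.65 in Gαq, with Ptprj 0.95 and 0.73, and with Prg4 0.92 and 0.85. Of the 13093 genes, 59 had an r above 0.8 with Nox4, and ranking by rho put other genes first. For Ncf1 the closest were Nox4, Angptl7 (r = 0.87, rho = 0.90) and Ltbp2 (0.86, 0.82). Here the r was 0.95 in WT and 0.78 in Gαq for Angptl7, and 0.89 and 0.70 for Ltbp2. Ltbp2 ran from 3.29 to 34.2 CPM in WT and from 15.2 to 50.6 CPM in Gαq. The highest values of each genotype were in libraries 5 and 8, which were also the highest in Nox4. Both are among the 4 libraries highest in atrial markers. The part of atrial tissue in these correlations was not tested. The median r with the 10 fibroblast markers was 0.67 for Nox4 and 0.62 for Ncf1, and with the 14 macrophage markers 0.48 and 0.52. For Nox4, 6 of the 10 and 7 of the 14 were above 0.5 (7.27% of all genes compared). For Ncf1 these were 6 and 8 (5.42%). Some markers went the other way. For Nox4 and Ncf1 the r was -0.45 and -0.28 with Fcgr1, -0.41 and -0.56 with Cx3cr1, and -0.08 and -0.10 with Col3a1.

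**Figure D3:**
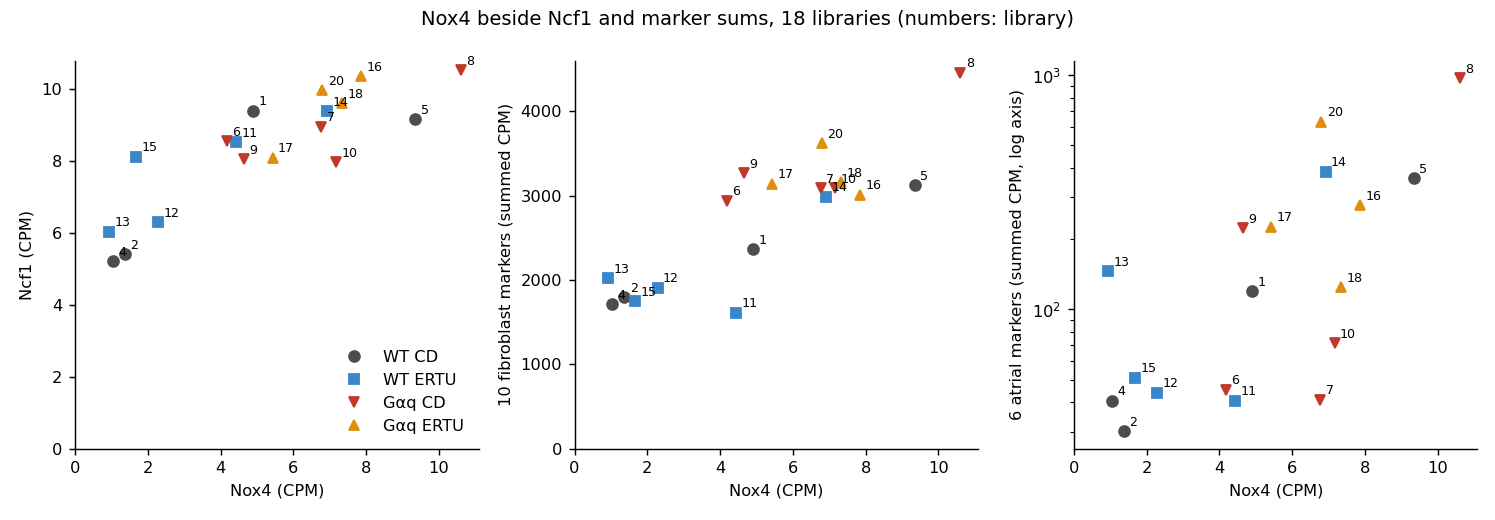
Nox4 in CPM (horizontal axes) against Ncf1 in CPM, the summed CPM of 10 fibroblast markers and the summed CPM of 6 atrial markers on a log axis, 1 point per library, numbered. Libraries 8 and 5 are highest in Nox4 (10.6 and 9.35 CPM), and the fibroblast sum is highest in library 8 (4457 CPM).

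Cybb varied with other genes than Nox4 and Ncf1 did. Its closest genes were Abca3 (r = 0.91, rho = 0.91), a lipid transporter, Mgat4a (0.87, 0.90), a glycosyltransferase, and Rasgrf2 (0.84, 0.83), a guanine nucleotide exchange factor. With 14 macrophage markers the median r was -0.01 and the highest 0.36. With 10 endothelial markers the median was 0.34, and Cdh5 (0.83), Tie1 (0.79) and Cldn5 (0.56) were above 0.5. Of 13093 genes, 4.26% had an r above 0.5 with Cybb, and 11 genes had an r above 0.8. The likeness to endothelial markers was not particular to Cybb. The endothelial median was 0.42 for Rac2 and 0.35 for Rac1, with 4 and 3 markers above 0.5. Of all genes compared, 6.58% and 5.5% were above 0.5 with Rac2 and Rac1. Their macrophage medians were 0.24 and 0.05. Gαq CD library 8, with the highest macrophage sum (817 CPM), had the lowest Cybb of all libraries.

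Cyba was most like S100a16 (r = 0.90, rho = 0.88), a calcium-binding protein, Ifih1 (0.88, 0.91), a sensor of double-stranded RNA, and the gene model Gm8666 (0.85, 0.86). Rac1 was most like Nabp2 (0.87, 0.81), which binds single-stranded DNA, Pcif1 (0.86, 0.89), an mRNA cap methyltransferase, and Sh2b3 (0.85, 0.74), an adaptor of cytokine receptors. Rac2 was most like Hhex (0.85, 0.78), a homeobox factor, Nos3 (0.85, 0.77), the endothelial nitric oxide synthase, and Eva1b (0.84, 0.81). Ncf4 was most like Btk (0.82, 0.86), a kinase of B cells and myeloid cells, Tuba1a (0.78, 0.84), a tubulin, and Cd55 (0.77, 0.79), a complement regulator. Some r differed between genotypes, as for Rac2 with Hhex (0.97 in WT, 0.60 in Gαq) and Rac1 with Sh2b3 (0.66 and 0.94). Of 13093 genes, those with an r above 0.8 numbered 16 for Cyba, 18 for Rac1, 9 for Rac2 and 1 for Ncf4.

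**Figure D4:**
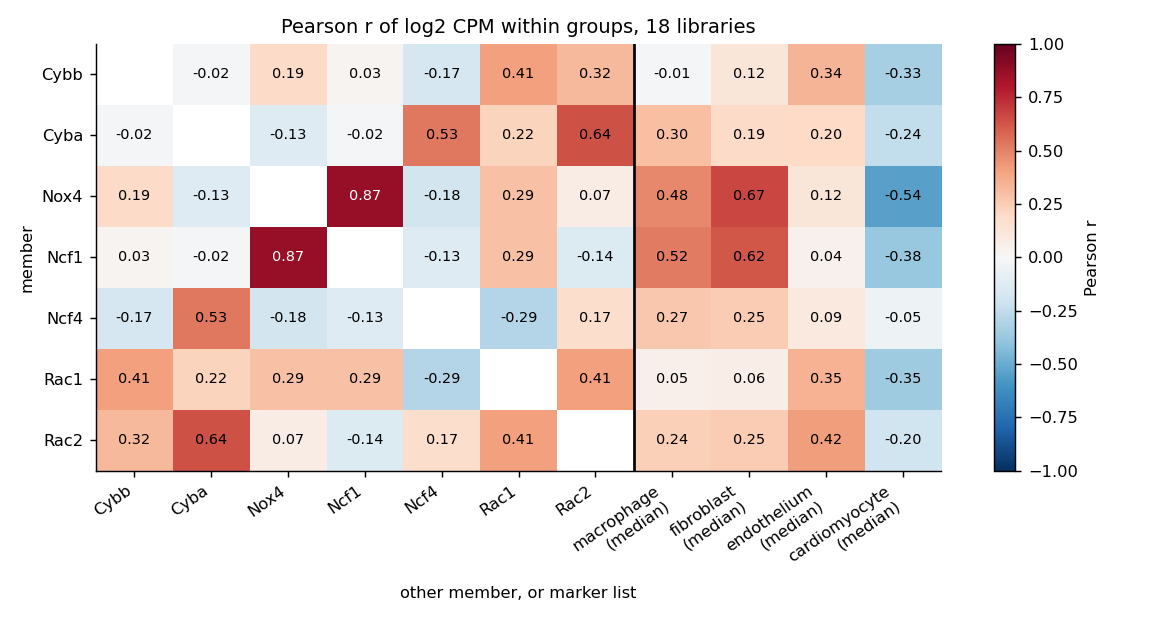
Pearson r between the genes (left block) and the median r of each gene with macrophage, fibroblast, endothelial and cardiomyocyte markers (right block), from log2 CPM with group means subtracted, 18 libraries. Nox4 with Ncf1 (0.87) is the highest pair, and Cybb has a median of -0.01 with macrophage markers.

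Other genes of NADPH oxidases differed between genotypes. Of 14 listed, 10 could be tested and Nox1, Nox3, Noxa1 and Duoxa2 were too low. Of the 10, 2 were called higher and 3 lower in Gαq (edgeR), where 9.72% of all genes were called higher and 9.92% lower. Cybc1, a chaperone of the NOX2 heterodimer, rose by 0.28 ± 0.09 on the log2 scale (edgeR adjusted p = 0.0302), and Sh3pxd2b, a podosome organizer related to p47phox, by 0.46 ± 0.10 (adjusted p = 0.00209).

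The genes called lower were Duoxa1, Duox1 and Poldip2. Duoxa1, the maturation factor of DUOX1, had a log2 fold change of -1.19 ± 0.25 (2.28-fold lower, adjusted p = 0.00179), from 2.01 ± 0.596 CPM (SD, n = 4) in WT CD to 1.00 ± 0.435 CPM (SD, n = 5) in Gαq CD. Duox1 itself had -0.96 ± 0.26 (adjusted p = 0.0119). Duox2, in the same list, went the other way without being called. Its mean was 1.56 CPM in WT CD and 2.09 CPM in Gαq CD, and 1.17 CPM in WT ERTU and 2.03 CPM in Gαq ERTU. Poldip2, which is known to bind p22phox and raise NOX4 activity, had -0.26 ± 0.06 (adjusted p = 0.00455). The list median was 0.01. On CD only Sh3pxd2b was called, though not without library 1, 2, 4 or 7 (edgeR adjusted p up to 0.0908). On ERTU only Duoxa1, though not without library 16 or 18 (up to 0.0613), and Duox1 were called. Of all genes, 8.1% were called on CD and 8.17% on ERTU.

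Of 21 regulators of Rac and of oxidase assembly, 5 were called higher by genotype and none lower, with a median of 0.15. Of all genes, 9.72% were called higher and 9.92% lower. Pak1, a kinase that Rac activates and that phosphorylates p47phox, rose by 0.70 ± 0.15 (1.62-fold, edgeR adjusted p = 0.00172), from 3.53 ± 0.362 CPM (SD, n = 4) in WT CD to 5.98 ± 1.84 CPM (SD, n = 5) in Gαq CD. Prkca, protein kinase C alpha, which acts downstream of Gαq signalling, rose by 0.43 ± 0.12 (adjusted p = 0.0137). Vav1, a Rac exchange factor of blood cells, rose by 0.41 ± 0.13 (adjusted p = 0.0249), but was not called without WT CD library 4 (adjusted p = 0.0529), Gαq ERTU library 20 (0.0615) or the 4 libraries highest in atrial markers (0.162). Arhgdib, an inhibitor of nucleotide exchange on small GTPases, and Pik3cg, a phosphoinositide kinase, also rose. On CD 2 were called (8.1% of all genes), Pak1 and Prkca. With each library left out, Pak1 kept this call in 13 of 18 fits (not without libraries 1, 2, 4, 7 or 8) and Prkca in 4 of 18 (without 10, 14, 16 or 17). Neither was called on CD when only the groups compared were fitted (edgeR adjusted p = 0.0713 for Pak1 and 0.0516 for Prkca) or without the 4 libraries (0.0798 and 0.0830). On ERTU 0 were called (8.17% of all genes) and 3 had an unadjusted p under 0.05 (21.7% of all genes). DESeq2 and voom were examined there only for the 3 regulators named with values, and voom called Pak1 and Vav1. Pak1 was also called on ERTU without the 4 libraries (adjusted p = 0.0296), without library 6 (0.0355) and without library 14 (0.0389).

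Several genes listed for NADPH supply were lower in Gαq. Whether they supply the NADPH that the oxidases use was not tested. Of 12 genes of NADPH supply, 6 were called lower by genotype (9.92% of all genes) and none higher, and the median log2 fold change was -0.24. Nadk2, the mitochondrial NAD kinase, had -0.93 ± 0.08 (1.90-fold lower, edgeR adjusted p = 1.16e-07), from 97.7 ± 12.5 CPM (SD, n = 4) in WT CD to 48.8 ± 8.89 CPM (SD, n = 5) in Gαq CD. Nnt, the mitochondrial transhydrogenase, had -0.96 ± 0.14 (1.95-fold lower, adjusted p = 3.78e-05) and Me1, the cytosolic malic enzyme, -0.56 ± 0.08 (1.47-fold lower, adjusted p = 1.99e-05). For all 3 the genotypes did not overlap, as for 3.55% of all genes. Idh1, Idh2 and Me3 made up the 6. Genes of the pentose phosphate pathway, among them G6pdx and Pgd, were not called. On CD the same 6 fell, and on ERTU 5 of them, all but Me3.

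Of 16 genes that remove superoxide and peroxide, 9 were called lower (9.92% of all genes) and 2 higher (9.72%) by genotype, with a median of -0.23. Sod2, the mitochondrial superoxide dismutase, had -0.50 ± 0.07 (1.41-fold lower, edgeR adjusted p = 4.51e-05), Prdx3, the mitochondrial peroxiredoxin, -0.45 ± 0.06 (1.36-fold lower, adjusted p = 2.19e-05) and Txnrd1, the cytosolic thioredoxin reductase, -0.43 ± 0.07 (1.35-fold lower, adjusted p = 0.000114). Sod2 and Txnrd1 did not overlap between genotypes, as for 3.55% of all genes, but the gaps were narrow. The lowest WT value of Sod2 was 528 CPM (WT CD) and the highest Gαq value 524 CPM (Gαq CD). For Txnrd1 they were 81.9 CPM (WT ERTU) and 79.6 CPM (Gαq CD). The glutathione peroxidases Gpx1 (0.38 ± 0.09, adjusted p = 0.00530) and Gpx3 (0.81 ± 0.19, adjusted p = 0.00324) rose. By diet, in WT, in Gαq and in the interaction, no gene of these 4 lists was called. The counts at an unadjusted p under 0.05 by diet were 1 of 10 other oxidase genes, 5 of 21 regulators, 1 of 12 supply genes and 0 of 16 removal genes. For all genes this share was 7.7%.

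**Figure D5:**
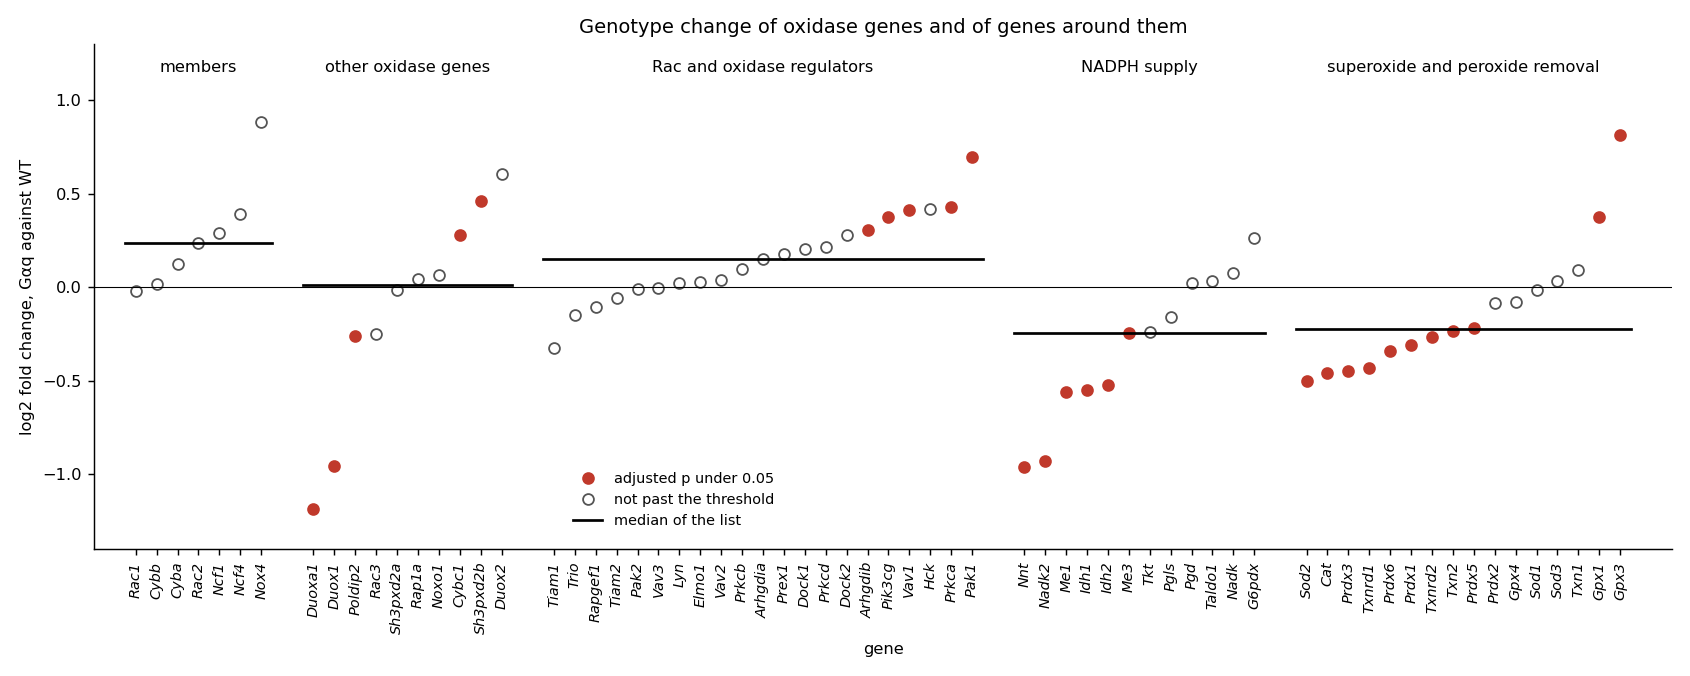
Log2 fold change of Gαq against WT (vertical axis) for each tested gene of the 5 lists, filled where the adjusted p is under 0.05, with the median of each list as a line. None of the 7 subunit genes is filled, while 6 of 12 NADPH supply genes are filled and below 0.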

How the data were processed

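Read counts per gene were deposited as raw whole numbers for 18 libraries. The authors made them from poly(A)-selected libraries (NEBNext Ultra II, 100-base paired ends) aligned to mm10 with STAR 2.6.0c and counted by strand with featureCounts (Subread 1.6.2), uniquely aligned pairs over nuclear-encoded genes. The authors also deposited log2-like values from DESeq2 (variance-stabilizing transformation), version 1.23.10 in the submitters' processing notes and another in the study's methods. These were recomputed from the counts to within 5.18e-11 and gave the same sign as the fits for the 7 genes in 28 of 28 group comparisons. Of the gene IDs, 55190 of 55450 (99.5%) matched GENCODE M21 (GRCm38), which supplied symbols, positions and exon lengths.

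Counts were fitted in R 4.3.3 with edgeR 4.0.16 (TMM scaling, filterByExpr, quasi-likelihood F test). Genotype and diet came from an additive model, the other 5 comparisons from a model with 1 mean per group, all over 18 libraries. Benjamini-Hochberg adjustment was over 16270 genes, and the genes left out held 0.0906% of counts. CPM are TMM-scaled, with a prior count of 2 before taking log2. The replicates are separate hearts. The steps were tested on simulated data. Figures were drawn with matplotlib.

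The 7 genes, the gene lists and the tests were chosen with earlier results of these data known. Named are the 7 genes, Gnaq, defining markers, up to 3 genes per list with the smallest adjusted p by genotype and the 3 genes most like each of the 7; other called list genes were named after their values were seen. Alternatives were median-of-ratios scaling, other filters, DESeq2 1.42.0, limma 3.58.1 voom with quality weights, only the groups compared, each library left out, and, chosen after seeing the data, the 4 libraries highest in atrial markers left out. 1 gene of the oxidase list is not reported here. Protein sequences were not used here.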

Additional observations from a re-analysis of the deposited data

Results flagged for a closer look

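In WT CD, library 5 stood apart in Cybb, at 25.7 CPM against 17.9 to 19.0 CPM in the other 3 libraries. Its gap to the nearest library was 0.86 of the range of the group, above Dixon's limit for 4 libraries. In Gαq CD, library 8 was low in Cybb, at 12.9 CPM against 18.8 to 20.9 CPM, and its gap was 0.739 of the range, above the limit for 5 libraries. The 7 genes in 4 groups make 28 such checks, of which about 1.4 would exceed the limit by chance at a rate of 1 in 20. Abca3, the gene most like Cybb, also had its highest value in WT CD in library 5 (57.4 CPM) and its lowest in Gαq CD in library 8 (36.0 CPM). Without the 4 libraries highest in atrial markers, which include both, the log2 fold change of Cybb by genotype was 0.16 ± 0.08 (edgeR adjusted p = 0.184).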

How the results depend on the processing

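No paired analysis was possible because nothing ties a table column to a replicate number of the labels. The count of subunit genes past the threshold by genotype, 0 of 7, became 3 under voom and 1 without the 4 libraries highest in atrial markers, and ran from 0 to 1 when each library was left out. On CD and on ERTU it became 1 under voom. The other alternatives kept these counts at 0, and by diet, in WT, in Gαq and in the interaction it was 0 throughout. No called direction changed. Some estimates smaller than their SE changed sign, though not all were near 0. In the main fits Nox4 had 0.37 ± 0.74 for the interaction and -0.34 ± 0.54 for ERTU in WT, and Cybb had -0.14 ± 0.14 on CD. Under voom the sign changed for Rac1 by genotype (0.00224), Nox4 by diet (0.0664) and Cybb for ERTU in Gαq (0.0243). It also changed for ERTU in WT for Ncf1 (-0.0371), Ncf4 (0.00447) and Rac1 (-0.0108). Without the 4 libraries the sign changed for Rac1 by genotype (0.00740), Nox4 by diet (0.12) and Cybb on CD (0.10). With each library left out, log2 fold changes ran from -0.0315 to 0.0945 for Cybb and from -0.0414 to 0.00598 for Rac1 by genotype, from -0.0650 to 0.0223 for Cyba and from -0.33 to 0.19 for Nox4 by diet, and on CD from -0.0136 to 0.117 for Cyba and from -0.0251 to 0.0567 for Rac1. For ERTU in WT they ran from -0.83 to 0.42 for Nox4, from -0.0557 to 0.22 for Ncf1 and from -0.0324 to 0.0397 for Rac1, and for ERTU in Gαq from -0.135 to 0.0446 for Cybb, from -0.0427 to 0.116 for Cyba and from -0.10 to 0.26 for Nox4. For the interaction they ran from -0.39 to 0.86 for Nox4 and from -0.11 to 0.17 for Ncf1. The cause was not tested. On CD, Txnrd1 lost its call without the 4 libraries (adjusted p = 0.0612), and Prdx3 when only the groups compared were fitted (0.0525). Genes at a few CPM, Nox4, Ncf4 and Rac2, rested on as few as 17, 27 and 42 counts in a library. Duoxa1, Duox1 and Duox2 rested on as few as 3, 8 and 12.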

Other observations

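Of all genes tested, 9.72% were called higher in Gαq and 9.92% lower. Of 14 macrophage markers, 3 were called higher in Gαq (Fcgr1, Cx3cr1 and Cd14) and none lower, with a median log2 fold change of 0.22. Of 6 tested lymphocyte markers, 3 were called higher, with a median of 0.81. By diet none of either list was called (edgeR). An unadjusted p under 0.05 was seen for 4 of 14 macrophage and 2 of 6 lymphocyte markers, and for 7.7% of all genes. The medians of the 2 lists by diet were -0.18 and -0.37. Of 10 endothelial markers, 3 were called lower by genotype, with a median of -0.23, and of 10 cardiomyocyte markers 4 were called lower, with a median of -0.09.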
